A study of Mus musculus with 45 samples.

Results

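d2 EBs lacking Smad3 (Smad3 KO) were compared with WT d2 EBs on 8 of the 45 arrays of the series, the 4 titled as d2 Smad3 KO and the 4 titled as d2 wild type. The study profiled mouse embryonic stem cells (ESCs), and the embryoid bodies (EBs) in which they differentiate as aggregates, on Illumina MouseWG-6 v2.0 bead arrays, asking what Smad2 and Smad3, lost singly or together (Smad2/3 DKO), each contribute as cells leave pluripotency. The Smad3 KO arrays hold clones CCE.2H2, CCE.2E7, CCE.1H1 and CCE.2B7, and the WT arrays hold lines CCE, CCB, CCH and CCF. All are XY lines of strain 129/Sv//Ev, grown without feeders in serum with LIF and then aggregated in hanging drops without LIF until day 2, and about 1250 EBs were pooled per array on both sides. The Smad3 KO clones carry a deletion around exon 1 of Smad3, made with a Cas9 nickase in line CCE, and Smad2 is intact in both groups. Every array is a separate clone or line, so that the error between arrays is the spread between clones, and a single WT array is of the parent line. Loss of Smad3 and descent from CCE therefore cannot be told apart by comparison with the other 3 lines, and the clones were also set against the CCE array alone.

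Smad3 and its close relative Smad2 are phosphorylated by activated Nodal, Activin and Tgf-beta receptors, bind Smad4 and act in the nucleus as transcriptional regulators. In the mouse epiblast Nodal signalling maintains the pluripotent state and then induces the primitive streak, from which mesoderm and definitive endoderm arise together with Wnt and Fgf signals. Smad3 recognises the short DNA motif CAGAC and binds as a complex with other factors.

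Only 4 of 9666 genes (0.0414%) were called at an adjusted p under 0.05 by limma. Smad3 and Slc22a23 fell (0.0207% of genes) and Edn2 and Robo4 rose (0.0207%). The 250 bases before the start of each are shown because these genes carry the called difference, and because the Smad3 stretch borders the deleted exon. They come from RefSeq (GRCm38.p6), are written 5′ to 3′ on the strand of the gene, and have CAGAC, or its reverse complement GTCTG, in capitals.
Smad3, chr9:63757995-63758244, minus strand: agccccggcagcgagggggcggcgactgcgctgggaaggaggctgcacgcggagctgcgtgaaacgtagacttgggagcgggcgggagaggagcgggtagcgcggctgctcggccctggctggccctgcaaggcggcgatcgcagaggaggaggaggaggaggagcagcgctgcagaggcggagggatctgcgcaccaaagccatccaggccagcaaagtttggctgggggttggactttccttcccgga
Edn2, chr4:120160956-120161205, plus strand: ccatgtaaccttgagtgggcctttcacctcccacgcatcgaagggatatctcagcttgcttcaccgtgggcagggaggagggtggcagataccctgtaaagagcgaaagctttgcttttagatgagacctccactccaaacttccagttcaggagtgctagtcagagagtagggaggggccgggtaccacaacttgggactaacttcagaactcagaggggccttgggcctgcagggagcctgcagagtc
Robo4, chr9:37401722-37401971, plus strand: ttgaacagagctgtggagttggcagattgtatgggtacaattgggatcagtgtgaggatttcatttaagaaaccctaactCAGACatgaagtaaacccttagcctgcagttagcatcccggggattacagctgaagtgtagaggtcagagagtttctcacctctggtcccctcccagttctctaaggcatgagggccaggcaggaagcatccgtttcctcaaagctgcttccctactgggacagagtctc
Slc22a23, chr13:34345219-34345468, minus strand: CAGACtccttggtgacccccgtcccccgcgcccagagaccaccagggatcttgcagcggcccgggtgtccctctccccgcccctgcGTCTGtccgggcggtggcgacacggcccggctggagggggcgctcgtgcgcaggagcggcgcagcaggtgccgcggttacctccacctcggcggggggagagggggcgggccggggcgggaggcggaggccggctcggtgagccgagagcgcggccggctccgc
The motif occurred 0 times in the windows of Smad3 and Edn2, 1 time in that of Robo4 and 2 times in that of Slc22a23, and 42.1% of 27025 windows of the same length held it at least 1 time. The full palindrome GTCTAGAC was in none of these 4 windows and in 0.174% of all. A match is a description of these letters and not evidence of binding.

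Smad3 was measured first as a check of the labels. Its normalized signal (log2) was 8.46 in CCE, 8.61 in CCB, 9.09 in CCH and 9.44 in CCF, and 5.04, 4.95, 4.94 and 5.09 in clones CCE.2H2, CCE.2E7, CCE.1H1 and CCE.2B7. All WT lines lay far above all clones, and the clones did not rise above background (detection p under 0.01) on any array. Smad3 fell by 3.89 on the log2 scale (SE 0.21, n = 4 and 4, limma adjusted p = 0.000148), which is at least 3.65-fold lower when the clones are set at the dimmest detected probe of their array. The other tested Smad3 probe was also detected in 4 WT lines and 0 clones, at 7.00 to 7.83 in WT and 5.45 to 6.83 in Smad3 KO, where the highest clone was CCE.2E7. Of the other Smad genes measured, Smad2 differed by 0.40 (adjusted p = 0.354) and Smad5 by -0.20 (adjusted p = 0.589). The Bmp transducer Smad1 differed by -0.95 with overlapping groups (adjusted p = 0.335), and the inhibitory Smad6 was not detected in either group.

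Edn2, which encodes the vasoactive peptide endothelin-2, showed the larger of the 2 called rises. Its signal was 5.86, 5.57, 5.50 and 5.04 in CCE, CCB, CCH and CCF, where it was not detected, and 7.85, 7.70, 7.87 and 8.15 in CCE.2H2, CCE.2E7, CCE.1H1 and CCE.2B7, where it was detected each time. The lowest clone lay well above the highest WT line, which was the parent CCE. Edn2 rose by 2.40 (SE 0.19, adjusted p = 0.00227), at least 2.18-fold. The clones were on average 2.03 above CCE, but the CCE signal was below background, so the size of that difference is not measured. Across 22 alternative settings the difference ran from 1.17 to 2.58 and passed in 20 of them (adjusted p from 0.000434 to 0.0646). In the authors' normalized table it was 2.23 with an adjusted p of 0.0542. Edn2 was not detected on any array of d2 Smad2 KO or d2 Smad2/3 DKO EBs, where its mean was 5.44 (range 5.23 to 5.84) and 5.67 (5.27 to 6.47), on arrays compared with the same WT libraries. The Smad3 level of 1 library in each of these 2 groups went against its label. Both groups also hold clones of the KT lines, not of CCE, and pooled more EBs per array than the Smad3 KO and WT groups. Genotype, line and EB number therefore cannot be told apart in this comparison.

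Robo4, a roundabout-family receptor best known from endothelium, was 6.67, 6.12, 5.73 and 6.32 in CCE, CCB, CCH and CCF and 7.84, 7.77, 7.83 and 8.19 in CCE.2H2, CCE.2E7, CCE.1H1 and CCE.2B7. It was detected in every clone and in no WT line, and CCE was again the highest WT value. It rose by 1.70 (SE 0.21, adjusted p = 0.0499), at least 2.21-fold, and lay on average 1.24 above the CCE signal, which was itself below background. Slc22a23, an orphan member of the organic ion transporter family, was 6.71, 7.65, 7.38 and 7.31 in the WT lines and 5.76, 5.57, 5.45 and 5.62 in the clones, in the same order. The clones were below every WT line and undetected, and CCE, the lowest WT line, was undetected as well. Slc22a23 fell by 1.66 (SE 0.20, adjusted p = 0.0499), or at least 1.17-fold with CCE kept at its undetected value. It could not be placed against CCE because neither the clones nor CCE were above background. The calls of Robo4 and Slc22a23 each passed in 9 of 22 alternative settings, with adjusted p up to 0.461 and 0.432, and reached 0.0547 for both in the authors' table.

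**Figure D1:**
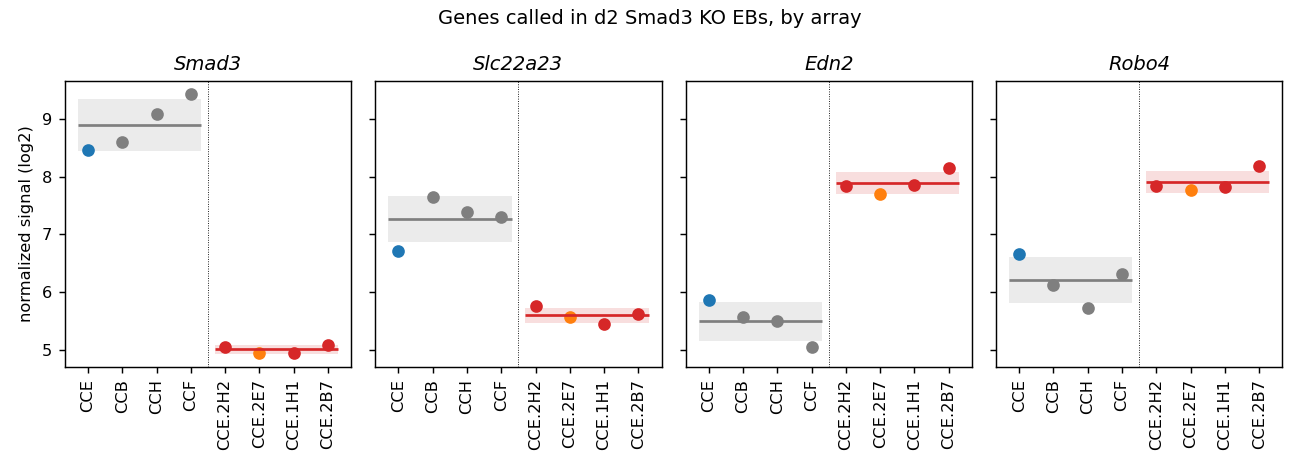
Normalized signal (log2, y axis) of the 4 called genes in each d2 EB array (x axis, line or clone), with lines for the group means and bands of 1 SD (n = 4 and 4). The WT and Smad3 KO values do not overlap for any of these genes, and CCE (blue) is the WT array closest to the clones for each of them.

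The genes with the next smallest p did not pass the test. Beyond Edn2 and Robo4, the 8 on the higher side had adjusted p from 0.0851 to 0.128 and included Bnc2, Rgs16, Ctrl and Zfp568. Bnc2, a zinc finger protein gene, was 7.67 in CCE but 5.75, 5.53 and 5.42 in CCB, CCH and CCF, against 8.45, 8.14, 8.19 and 8.36 in the clones. Its CCE value stood close to the clones and away from the other lines, and its difference of 2.19 from all WT lines (adjusted p = 0.115) shrank to 0.61 from CCE. A dimmer Bnc2 probe was 6.40 in CCE, 5.77 to 6.18 in the other WT lines and 6.65 to 7.36 in the clones. That probe was undetected in every WT line and in CCE.1H1. The nearness of CCE to the clones was thus seen on the brightest probe only. Rgs16, a regulator of G protein signalling on chromosome 1, was 7.31 to 7.99 in WT and 8.69 to 9.41 in Smad3 KO (difference 1.32, adjusted p = 0.0851). Ctrl, a chymotrypsin-like protease gene, and Zfp568, which encodes a KRAB zinc finger repressor, differed by 0.76 and 0.85 (adjusted p = 0.0866 and 0.0936). Hpdl and Gpatch4 differed by 0.85 and 0.76, while Ifi27 and Slc41a1 were below background in all 8 arrays.

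On the lower side, the 8 genes after Smad3 and Slc22a23 had adjusted p from 0.0603 to 0.0769. Fst encodes follistatin, a secreted antagonist of Activin. It was 10.92, 12.16, 11.96 and 11.82 in CCE, CCB, CCH and CCF and 9.25, 10.19, 9.66 and 9.93 in CCE.2H2, CCE.2E7, CCE.1H1 and CCE.2B7. The groups did not overlap, with CCE the lowest WT line, and the difference was -1.96 from WT (SE 0.29, adjusted p = 0.0769) and -1.16 from CCE. Slitrk5, a neuronal transmembrane protein gene, was 10.31 to 10.70 in WT and 8.67 to 9.70 in Smad3 KO (difference -1.44, adjusted p = 0.0769). Comp (cartilage oligomeric matrix protein), Ghr (growth hormone receptor), Syt1, P2ry1, St3gal6 and Cd40 were undetected in all 4 clones and detected in 3, 4, 2, 3, 4 and 4 WT lines, with differences of -1.38, -1.92, -1.15, -1.13, -1.69 and -1.82. Dimmer probes, undetected apart from 1 Cd40 probe in CCB, differed by -0.29 for St3gal6 and by -0.17 and -1.08 for Cd40. For all 20 of the genes with the smallest p, 10 in each direction, the groups did not overlap and every clone read beyond CCE, although for genes below background on these arrays such an order carries no weight. Over all tested genes, 266 (2.75%) were higher and 473 (4.89%) lower without overlap, but the 20 were chosen by p on these same arrays.

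The methods of the study used a looser criterion, a fold change over 1.5 together with p below 0.05 before adjustment. It was met by 811 genes (8.39%), of which 279 (2.89%) were higher and 532 (5.5%) lower in Smad3 KO. Gene lists were described at this threshold, since 1449 of 9666 genes (15%) had an unadjusted p under 0.05 and only Smad3 among the list members was called. Median scaling in place of quantile normalization moved the median difference of all genes from -0.0164 to -0.224 and gave 89 higher and 1362 lower genes, so the balance of directions rests on the normalization. None of the list members named below as reaching the study threshold reversed direction under any alternative. In bulk RNA, fewer cells of a type and less RNA per cell cannot be told apart.

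Many primitive streak and mesoderm genes had lower signal in Smad3 KO and in CCE than in the other WT lines. As a list, the median difference from the WT mean was -0.671 to -0.341 in the clones, -0.523 in CCE and -0.0605 to 0.41 in CCB, CCH and CCF. Of 20 tested, 7 were lower at the study threshold and 0 higher, beside 5.5% and 2.89% of all genes. The median difference was -0.361 against -0.0164 for all genes. Fgf8, an Fgf ligand of the streak, was 8.87, 11.09, 11.42 and 11.05 in CCE, CCB, CCH and CCF and 8.09, 5.71, 7.88 and 8.42 in CCE.2H2, CCE.2E7, CCE.1H1 and CCE.2B7. The CCE value lay just above the clones and more than 2 below the other lines, and the difference was -3.08 (SE 0.68, adjusted p = 0.134) from WT and -1.35 from CCE. CCE.2E7 was below background, and a dimmer Fgf8 probe, below background on all 8 arrays, differed by -0.48. Eomes, a T-box regulator of mesoderm and definitive endoderm, was 6.28, 7.73, 8.79 and 9.03 in the WT lines and 5.66, 5.10, 5.67 and 5.99 in the clones. Eomes was detected in CCB, CCH and CCF but was below background in CCE and in every clone. The difference of -2.35 from WT (adjusted p = 0.137) therefore stands for at least 1.91-fold with CCE kept at its undetected value. The clones could not be placed against CCE. The other 5 were the Wnt ligand gene Wnt8a (-2.97), the Wnt-responsive factor Sp5 (-2.83), the homeobox genes Evx1 (-1.54) and Cdx2 (-1.27), and Rspo3 (-1.93, and -0.03 on a probe below background throughout), which encodes an enhancer of Wnt signalling. All of these but Wnt8a were below background in CCE and in every clone.

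In each of these 7 genes CCE was the lowest WT line. For all tested genes CCE was the WT array nearest to the Smad3 KO side in 40%. Between 2 and 4 of the 20 streak genes were detected in each clone, 4 in CCE, and 10 in each of CCB, CCH and CCF. The median difference of the list from CCE was -0.017. The list medians of CCE and the clones thus largely compare signal below background, and do not place the clones against CCE. Among members not at the threshold, Wnt3 differed by -0.94 and was below background in CCE and in every clone. Mixl1, Mesp1, Tbx6 and Kdr (-0.55, -0.06, -0.13 and 0.10) were below background on all 8 arrays, so these differences carry no weight.

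Wnt ligands and response genes partly overlap this list. Of 14 tested, 6 were lower and 0 higher at the study threshold, beside 5.5% and 2.89% of all genes (median -0.542). Axin2, a feedback inhibitor and general readout of Wnt signalling, was 8.65, 10.70, 10.88 and 10.84 in CCE, CCB, CCH and CCF and 8.01, 6.23, 7.94 and 8.12 in CCE.2H2, CCE.2E7, CCE.1H1 and CCE.2B7. CCE was again next to the clones, while CCE.2E7 was lower than every other array and below background. Axin2 differed by -2.69 from WT (SE 0.57, adjusted p = 0.125) and by -1.07 from CCE, and both sizes include that undetected value. Wls, needed for secretion of Wnt ligands, was 7.93 to 8.71 in WT and 6.91 to 7.47 in Smad3 KO (difference -1.14, adjusted p = 0.101). The ligand gene Wnt5b (-0.65) and the inhibitor Nkd1 (-0.65) completed the 6 with Wnt8a and Sp5. Wnt5b was below background in CCE and in every clone, and Nkd1 was detected only in CCB. Lef1 differed by 0.42, and Dkk1 (0.07) was below background on all 8 arrays.

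Actin contractile genes were the list with the most members at the threshold, 11 lower of 16 tested and 0 higher (median -0.754). The shares of all genes were 5.5% lower and 2.89% higher. Acta2, smooth muscle actin, was 7.41, 7.37, 7.56 and 9.20 in CCE, CCB, CCH and CCF and 5.35, 5.93, 5.72 and 5.81 in CCE.2H2, CCE.2E7, CCE.1H1 and CCE.2B7. On this brightest probe it was detected in every WT line and no clone, CCE lay with CCB and CCH, and the difference was -2.18 from WT (SE 0.38, adjusted p = 0.0866). The other 3 tested Acta2 probes differed by -0.06, -0.09 and -0.42 with overlapping groups, and of these only the one at -0.09 was detected at all, in 3 WT lines and in clone CCE.2B7. The Acta2 difference therefore rests on 1 of 4 probes. Myl9, a myosin light chain gene, was 7.06 to 8.93 in WT and 5.93 to 6.84 in Smad3 KO (difference -1.63, adjusted p = 0.14). The secreted matrix proteins Ccn1 and Ccn2, often used as readouts of Yap activity, differed by -1.26 and -0.92, and Ccn2 was high in clone CCE.2E7 (12.71) and lower in the other 3 (10.86 to 11.05). The remaining 7 were Acta1, Tagln, Cnn2, Tpm1, Tpm4, Vcl and Actc1, from -0.64 for Vcl to -0.88 for Cnn2. Of the 11, Tagln and Actc1 were below background on all 8 arrays, and Acta1 and Ccn1 were detected only in CCF, so these 4 carry no measured level in the other arrays. Myl9 was undetected in every clone and Cnn2 in every clone but CCE.2E7, so the sizes of their differences rest on signal below background. Given as the median of the list in each array, all 4 clones (-0.974 to -0.681) lay below all 4 WT lines (-0.438 to 0.339), of which CCE was the lowest. Of the 9 fibroblast and feeder markers, 2 passed the filter, both with a higher mean in Smad3 KO (median 0.30).

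Genes of naive pluripotency, the state before implantation, split in direction. Of 15 tested, 7 were higher and 2 lower at the study threshold, beside 2.89% and 5.5% of all genes (median 0.481). Esrrb, an orphan nuclear receptor that maintains self-renewal, was 10.56, 8.33, 9.27 and 10.42 in CCE, CCB, CCH and CCF and 11.32, 9.95, 11.43 and 11.45 in CCE.2H2, CCE.2E7, CCE.1H1 and CCE.2B7. 3 of the clones lay above all WT lines and CCE.2E7 lay among them, and the difference was 1.39 (SE 0.52, adjusted p = 0.279). Dimmer probes of Esrrb and Nr5a2, below background on all 8 arrays, each differed by 0.22. Klf5, Tcl1, Zfp42 (Rex1) and Nr5a2 showed the same split between CCE.2E7 and the other clones. Klf5 was 10.94 in CCE.2E7 and 12.54 to 12.73 in the other 3, against 10.35 to 11.77 in WT. Tcl1, a coactivator of Akt, was undetected in WT and in CCE.2E7 (5.08) and was 7.47 to 7.79 in the other 3 clones.

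Fgf4 and Gbx2 were higher on average by 1.37 and 1.33, with CCE.2E7 inside or above the range of the other clones and CCE within 0.15 and 0.08 of the Smad3 KO mean. The lower members were Nanog and Dppa3. Nanog, a core pluripotency factor and target of Nodal signalling, was 10.49, 10.66, 11.08 and 11.67 in CCE, CCB, CCH and CCF and 9.37, 10.16, 9.44 and 9.43 in CCE.2H2, CCE.2E7, CCE.1H1 and CCE.2B7. On this brightest probe Nanog lay lower in every clone than in every WT line, by 1.37 on average (SE 0.28, adjusted p = 0.117), and by 0.89 below CCE. The other tested Nanog probe, detected on every array, differed by -1.60, but its groups overlapped, with CCE.2E7 at 9.91 and CCE at 9.55. Dppa3, a maternal factor and germ cell marker, was detected in 3 WT lines and no clone (difference -1.82, adjusted p = 0.0769). The list median per array was 0.769, 0.896 and 0.966 in CCE.2H2, CCE.1H1 and CCE.2B7, -0.036 in CCE.2E7 and 0.203 in CCE, and -0.453 to 0.163 in the other WT lines. General pluripotency genes were detected in all 10 of 10 tested on every array except CCE.1H1 (9), and of these only Utf1 reached the threshold (0.66).

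Of 16 ligand, receptor and transducer genes of the Nodal pathway itself, 3 were lower at the study threshold and 0 higher, beside 5.5% and 2.89% of all genes (median -0.262). They were Smad3, the type II receptor gene Tgfbr2 and the proprotein convertase gene Furin. Smad3 is the deleted gene, so its fall was set by the design and adds nothing to this count. Tgfbr2 was 6.49, 7.62, 7.06 and 7.09 in CCE, CCB, CCH and CCF and 5.47, 5.57, 6.00 and 5.25 in CCE.2H2, CCE.2E7, CCE.1H1 and CCE.2B7. It was detected in the WT lines other than CCE and in no clone, and differed by -1.50 from WT (SE 0.25, adjusted p = 0.0769). This is at least 1.02-fold with CCE kept at its undetected value. The ligand gene Nodal differed by -0.59, its co-receptor Tdgf1 by -0.61 and the Smad partner Foxh1 by -0.59.

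Of 10 tested targets and feedback genes of the pathway, Fst and Gsc (-1.81) were lower at the threshold and 0 higher (median 0.0372). Of all genes, 5.5% were lower and 2.89% higher. Lefty1, which encodes a Nodal antagonist induced by Nodal, was 12.66 to 13.24 in WT and 10.85 to 13.52 in Smad3 KO, with a difference of -0.22. Lefty2 differed by -0.04 over a range of 7.91 to 12.26 in Smad3 KO and 10.43 to 11.64 in WT. Clone CCE.2E7 held the lowest value of all 8 arrays for Nodal (10.96), Foxh1 (6.28), Lefty1 (10.85) and Lefty2 (7.91), while the other 3 clones overlapped the WT lines or lay above them. Gsc was 5.91 in CCE, below background like the clones (5.54 to 6.51), and 8.13 to 9.02 in the other WT lines. Of the Bmp targets 0 of 6 reached the threshold (median 0.07). Among imprinted genes, Igf2 was 9.82 to 10.30 in WT and 7.89 to 9.08 in Smad3 KO (difference -1.42, adjusted p = 0.0866). Grb10 was 9.12 and 9.26 in CCE.2H2 and CCE.2B7 and 10.93 and 11.98 in the other 2 clones, against 11.48 to 12.17 in WT (difference -1.44, and -0.29 on a dimmer probe detected in CCF and CCE.1H1 only). Lists for primitive, visceral and parietal endoderm, trophectoderm, neural ectoderm, germ cells, and blood and endothelium had 0 of 11, 2 of 16, 1 of 4, 1 of 11 and 1 of 6 tested members at the threshold. All were lower, beside 5.5% of all genes. The 2 trophectoderm members were Cdx2 and Eomes, counted above among the streak genes.

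**Figure D2:**
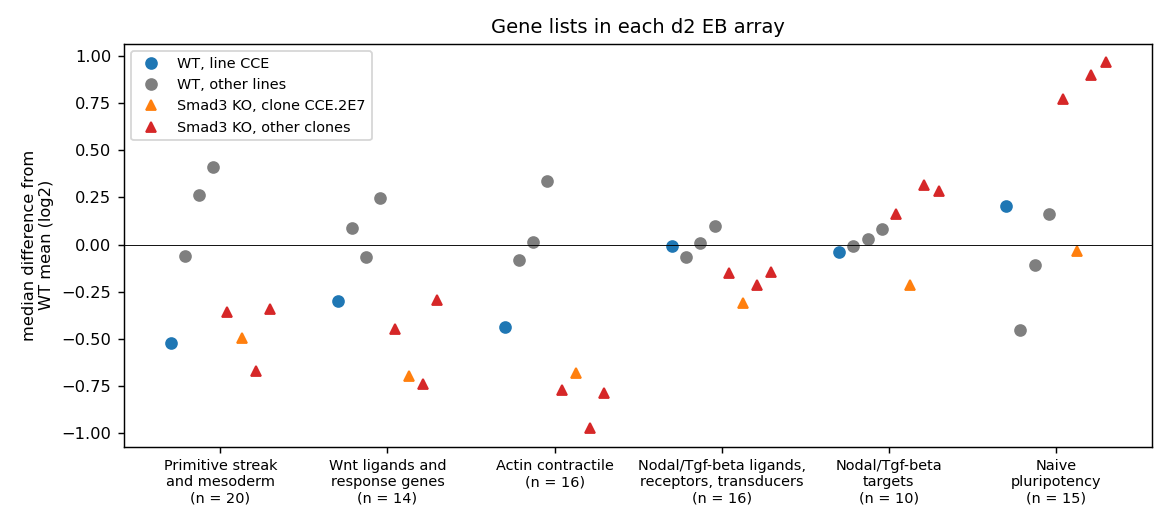
Median over the tested members of each list (x axis, n genes) of the difference from the WT mean (log2, y axis), 1 symbol per d2 EB array. CCE (blue circles) lies with the Smad3 KO clones (triangles) for streak genes at -0.523, and clone CCE.2E7 (orange) lies away from the other clones for naive genes at -0.036. Most streak members were below background in CCE and in the clones.

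The parent line was then placed against both groups. The root mean square distance over tested probes between a clone and CCE was 0.427 to 0.517 (median 0.457), below the 0.545 to 0.68 between clones and the other WT lines. CCE lay 0.482 to 0.532 from the other WT lines, and the clones lay 0.368 to 0.688 from each other. After centring on all 45 arrays, CCE correlated over the 16896 tested probes at 0.749 with the mean of the d2 Smad3 KO arrays and at 0.574 with the other d2 WT arrays, while CCB, CCH and CCF correlated best with d2 WT (0.632 to 0.746).

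For the 279 genes higher at the study threshold, the median difference was 0.812 from WT but 0.429 from CCE, and CCE itself was 0.542 above the other lines. For the 532 lower genes these values were -0.816, -0.507 and -0.516. All 4 clones lay above CCE in 100 of the 279 (35.8%) and below it in 309 of the 532 (58.1%), against 14.2% and 21.3% of all tested genes. These genes were chosen by their difference from a WT mean that includes CCE. Shares above those of all genes are built into that choice and are no evidence of a difference from CCE. CCE was the WT array closest to the clones in 74.2% of the higher and 64.7% of the lower genes. These counts include genes below background in CCE and the clones, whose order carries no weight. They describe 1 parent array, which has no replicate at this stage.

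**Figure D3:**
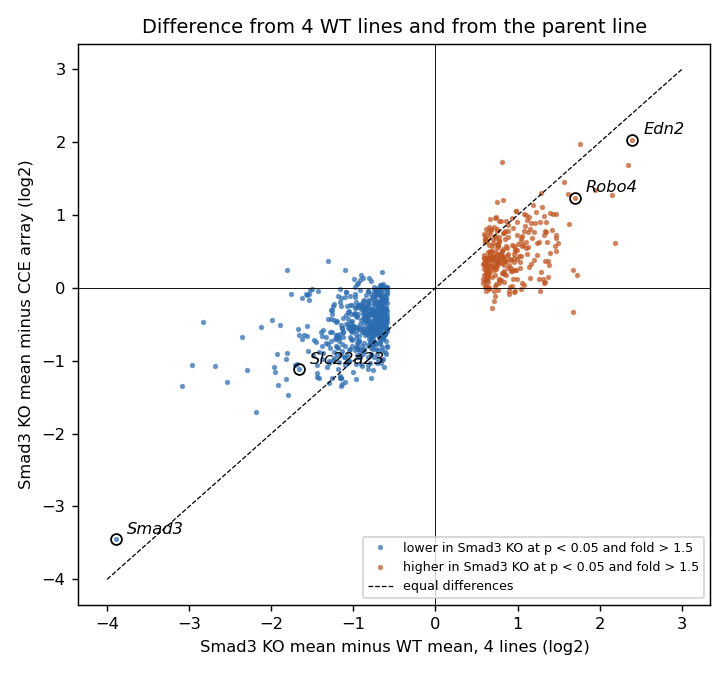
Difference of the Smad3 KO mean from the mean of 4 WT lines (x axis, log2) and from the CCE array alone (y axis, log2) for the 279 higher and 532 lower genes at the study threshold, with the 4 called genes circled. Most points lie between the dashed line of equal differences and 0, with medians of 0.429 and -0.507 on the y axis.

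The number of called genes depended on CCE and on clone CCE.2E7. Without CCE, 166 genes were called (41 higher and 125 lower), and in 120 of these the CCE value was nearer to the clones than to the remaining WT lines. Without clone CCE.2E7, 336 genes were called (164 higher and 172 lower), and in 254 of these CCE.2E7 was nearer to WT than to the remaining clones. Leaving out any of the other 6 arrays gave 2 or 3 called genes, in 0 of which the array lay nearer to the other genotype. With neither CCE nor CCE.2E7, a setting chosen after the data were seen, 818 genes were called (359 higher and 459 lower). CCE.2E7 correlated at 0.643 with d2 WT and 0.455 with the other d2 Smad3 KO arrays, and stood apart on the second principal component (20.6% of variance). Smad3 was undetected in CCE.2E7 as in the other clones.

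Whole chromosomes also separated the clones. The median difference from the WT mean over 760 probes on chromosome 1 was 0.352, 0.337 and 0.385 in CCE.2H2, CCE.1H1 and CCE.2B7, and -0.0336 in CCE.2E7 and 0.102 in CCE. On chromosome 6 (705 probes) it was 0.393 in CCE.2E7 and 0.172 in CCE, and -0.103 to -0.0918 in the other 3 clones. On chromosome 8 it was 0.254 in CCE.2H2 and 0.261 in CCB, and on chromosome 11 it was 0.276 in CCB. The medians of the other autosomes and the X chromosome lay between -0.12 and 0.0728 in all 8 arrays. Of the 279 higher genes 47 lie on chromosome 1, which is 9.77% of its 481 tested genes against 2.89% of all genes, and 5 (1.04%) of its genes were lower. Rgs16, Slc41a1, Nr5a2 and Gbx2 are among the chromosome 1 genes. DNA was not assayed here, and the part of these chromosomes in any single gene was not tested. Without the probes of chromosomes 1, 6, 8 and 11, added after seeing the data, 197 higher and 433 lower genes reached the study threshold. The 4 called genes were the same, but none of them lies on these chromosomes, so their differences could not change.

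The chromosome medians recurred in the same clones at d3, at 0.409, 0.409 and 0.349 on chromosome 1 in CCE.2B7, CCE.1H1 and CCE.2H2 and 0.406 on chromosome 6 in CCE.2E7. In ESCs CCE had 0.207 on chromosome 6 and CCB 0.234 and 0.282 on chromosomes 8 and 11, as at d2. At d3 the values on chromosomes 8 and 11 (0.255 and 0.265) were in the array labelled CCF, and 0.178 on chromosome 6 in the array labelled CCB, so the line labels of the d3 WT arrays do not follow those of the earlier stages. The ESC array labelled CCE.2B7 had 0.0591 on chromosome 1 and expressed Smad3, against its label. The only tested Y-linked gene, Eif2s3y, was 7.06 in CCE, 8.21 to 8.90 in the other WT lines and 5.34 to 7.31 in the clones (difference -1.68, adjusted p = 0.206).

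**Figure D4:**
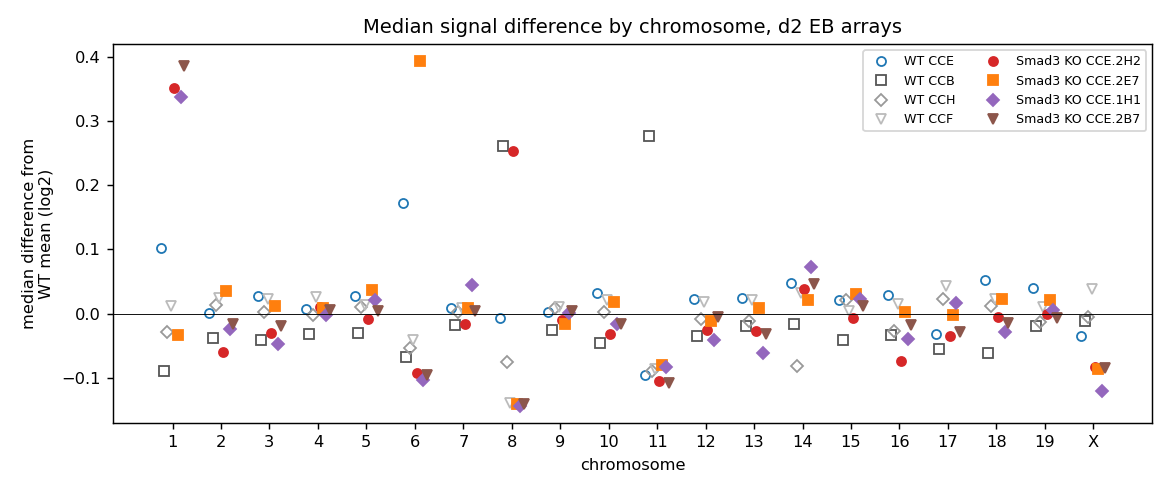
Median over tested probes of the difference from the WT mean (log2, y axis) by chromosome (x axis) in the 8 d2 EB arrays, WT open and Smad3 KO filled. CCE.2H2, CCE.1H1 and CCE.2B7 stand at 0.337 to 0.385 on chromosome 1 and CCE.2E7 at 0.393 on chromosome 6.

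The same clones and lines were profiled again at d3 on separate arrays. At d3 Smad3 fell by 4.71 (SE 0.13, limma adjusted p = 4.15e-07) and was the only called gene (0.0103% lower, 0% higher). At the study threshold, 637 genes (6.59%) were higher and 831 (8.6%) were lower at d3. Of the 279 genes higher at d2, 41.6% were higher at d3, and of the 532 lower, 39.3% were lower at d3. Both time points use the same clones, so these shares include what is particular to the clones and lines. Of the genes higher in d2 Smad3 KO 62.4% fell in WT cells between ESCs and d3, against 14.7% of all genes, and of those lower in d2 Smad3 KO 61.1% rose, against 17%.

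Streak genes, at a median of -0.361 at d2, were at -2.8 at d3, Wnt genes at -1.71 and definitive endoderm and node genes at -2.2 (-0.156 at d2). The difference between the d3 and d2 effects was called for 0 of 9666 genes by limma (914 genes, 9.46%, at an unadjusted p under 0.05, lowest adjusted p = 0.0552). That fit treats the 16 arrays as independent. With clone or line as a random block 16 genes were called (lowest adjusted p = 0.0221), but this block joins d2 and d3 WT arrays by the line labels that did not follow the chromosome medians. Without the d2 CCE array 7 genes were called. The smallest p was for Edn2, which differed by 0.58 at d3 (change in effect -1.81, adjusted p = 0.0552) and was not detected on any d3 array. Robo4 differed by -0.41 at d3 and Slc22a23 by -1.33, with changes in effect of -2.10 and 0.33 (adjusted p = 0.115 and 0.954). Robo4 was detected in all 4 WT ESC arrays at 7.41 to 9.54, and fell in WT by 2.06 between ESCs and d3. Slc22a23 rose in WT by 3.24 over the same interval.

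Foxa2, a regulator of definitive endoderm and node, was undetected in all 8 d2 arrays and at d3 was 7.17 to 8.91 in WT and 5.15 to 6.08 in Smad3 KO (change in effect -2.48, adjusted p = 0.0552). Lhx1, a homeobox gene of the same tissues, was 10.10 to 13.81 in d3 WT and 5.63 to 7.95 in d3 Smad3 KO, with a change in effect of -5.56 (adjusted p = 0.108). Its d2 difference of -0.40 came from CCB alone, at 7.28 against 5.54 to 5.62 in the other WT lines. Mapk8ip2, a scaffold protein gene of the Jnk pathway, was 8.11 to 8.44 in WT and 7.49 to 7.89 in Smad3 KO at d2. At d3 it was 8.28 to 9.16 in WT and 9.28 to 9.77 in Smad3 KO, so that its groups did not overlap at either stage but in opposite order (change 1.63, adjusted p = 0.0552). Marveld3, a tight junction gene, differed by -1.26 at d2 and 0.95 at d3 (change 2.20, adjusted p = 0.115).

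**Figure D5:**
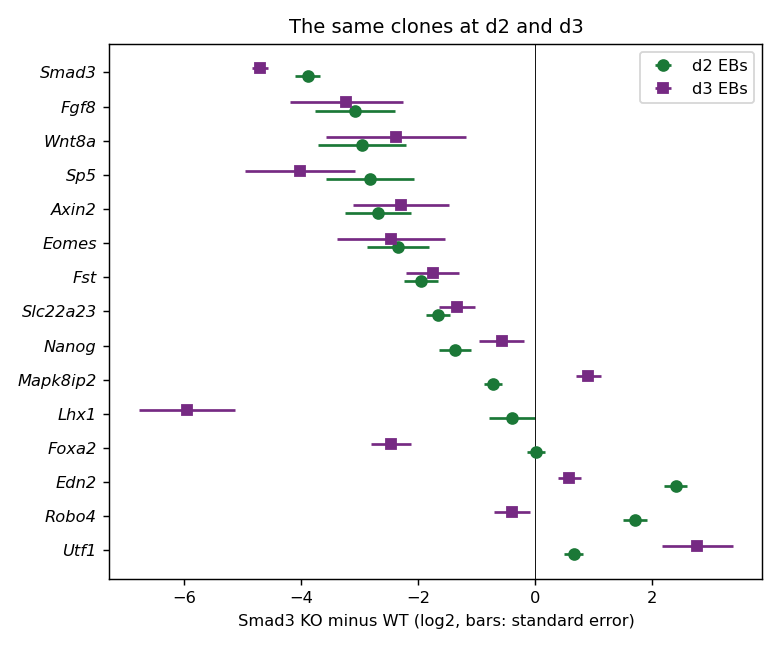
Smad3 KO minus WT (log2, x axis; bars, standard error; n = 4 and 4 arrays per stage) for 15 genes named in the text (y axis) in d2 and d3 EBs of the same clones. Smad3 is at -3.89 and -4.71, while Edn2 is at 2.40 at d2 and 0.58 at d3.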

How the data were processed

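RNA of ESCs and EBs was hybridised to 45 arrays by the authors. The deposited signal is a linear intensity per probe from GenomeStudio 2009.2, with a detection p-value for each probe deposited beside it. Its lowest values lie well above 0, so it was taken as not background-subtracted. The deposited normalized log2 values, corrected for background and then quantile-normalized by the authors with settings not given in the sources used here, served as an alternative.

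Signal of all 45 arrays was background-corrected from the detection p-values, quantile-normalized (offset 16) and log2-transformed by neqc in limma 3.58.1 (R 4.3.3, with figures in Python 3.11.15 and matplotlib 3.10.9). Probes detected (p under 0.01) in at least 3 of 45 arrays were tested, 16896 of 45281, covering 9666 genes, each given by its brightest tested probe. A single gene symbol was given for 34885 probes, more than 1 for 18, and none for 10378. RefSeq held 34807 of them. The 8 d2 arrays were fitted with lmFit and eBayes, with Benjamini-Hochberg adjustment over all tested probes, and the change in effect on 16 d2 and d3 arrays. SE is the moderated standard error of the log2 difference. "At least" folds set each array of the undetected group at the higher of the probe's own value and the dimmest detected probe. The other group entered at its plain mean. For Slc22a23, Eomes and Tgfbr2 that mean includes CCE below background, so these folds are not strict lower bounds. The script was tested on simulated data.

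The arrays compared had a median signal of 145 to 243 and 11495 to 14138 detected probes, and their number limits the precision. The fit left out the other d2 genotypes, in which the Smad3 level of 2 libraries went against the label, and fits with them were alternatives. Residual correlations of equal replicate numbers (-0.0378 to 0.0183) gave no pairing.

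Named genes are the Smad genes, called genes, called list members, the 10 smallest p in each direction, called genes by distance from CCE, and the 5 smallest p for stage dependence. The list members named were chosen after their values were seen. The comparison and the 32 lists were chosen with earlier results of these data known. Alternatives covered background correction, scaling, the normalized values of the authors, filters, arrays in the fit, array weights, a replicate block and single arrays left out. Leaving out both CCE and CCE.2E7, leaving out 4 chromosomes, and the alternatives for the distance from CCE were added after seeing the data.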

Additional observations from a re-analysis of the deposited data

Results flagged for a closer look

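For the 71 genes named or listed above, the d2 WT and d2 Smad3 KO groups of 4 arrays were checked for 1 array far from the other 3, and 21 of 142 groups had such an array (chance alone gives about 1 in 20). That rate is for independent groups, whereas these groups share the same 8 arrays. Some of the genes were also chosen after their values were seen. No explanation was tested.

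Clone CCE.2E7 was the distant array in 9 groups. It was low for Axin2 (6.23), Klf5 (10.9), Esrrb (9.95), Zfp42 (10.5) and Tcl1 (5.08), and high for Ccn2 (12.7), Actc1 (5.2), Nanog (10.2) and Ndn (10.8). CCE was the distant WT line in 5 groups, low for Fgf8 (8.87), Rspo3 (6.64) and Axin2 (8.65) and high for Bnc2 (7.67) and Fgf18 (5.7). CCE.2B7 was high for Robo4 (8.19) and Wnt5b (6.8), and CCE.2H2 was high for Mapk8ip2 (7.89) and low for the POU factor gene Pou3f1 (13.1). CCB was high for Ifi27 (5.48) and Lhx1 (7.28), and CCF was high for Acta2 (9.2). The flagged groups of Actc1, Wnt5b, Fgf18 and Ifi27 were below background on every array, so these flags carry no weight. Axin2 and Tcl1 in CCE.2E7 and Rspo3 in CCE were below background too, so how low they lie is not measured.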

How the results depend on the processing

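Of 9666 genes 4 were called, and the count moved to 2 with no background correction, no filter on dim probes, neqc on the 8 arrays or all 16 d2 arrays in the fit, and to 1 in the authors' normalized table. It was 35 on 14 d2 arrays without the 2 libraries that went against their labels, 199 (3 higher, 196 lower) with median scaling, 721 with array weights, 2 to 336 with 1 array left out, and 818 with neither CCE nor clone CCE.2E7. With the replicate number as a block, Smad3 alone was called (1 gene) and 812 genes reached the study threshold, although the numbers do not pair the arrays. The 811 genes at the study threshold became 304 (119 higher, 185 lower) with no background correction, 1451 (89 higher, 1362 lower) with median scaling, 1431 with array weights, 617 to 1321 with 1 array left out and 1710 with neither CCE nor CCE.2E7. The Smad3 difference of -3.89 was called in 20 of 22 settings, but had an adjusted p of 0.398 on 16 d2 arrays and 0.0558 on all 45, which hold libraries whose Smad3 level went against the label. Genes at the study threshold with every clone beyond CCE numbered 409, 141 with no background correction, 1036 with median scaling and 398 to 1095 with a clone left out. The change in effect between stages was called for 16 genes with clone as a random block, which relies on d3 WT line labels that did not follow the chromosome medians, 0 to 7 with 1 array left out (7 without CCE), and 0 otherwise. Among named genes 3 reversed, none of them called. These were Foxa2 (0.01 as reported, -0.0064 with no background correction, -0.068 in the authors' table, -0.039 without CCE, -0.013 without CCE.2E7, -0.084 without CCE.2B7, -0.063 with neither, and up to 0.0732 with 1 array left out), Smad6 (-0.049 with median scaling) and Lhx1 (-0.40 as reported, 0.020 without CCB, down to -0.601 with another array left out). Signals near background, such as Edn2 in WT, give only a bound on the fold.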
